A study of Homo sapiens with 42 samples.

Results

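The DNA replication genes described here are 40 human genes that encode the machinery copying the genome in S phase. They were picked out by gene name from the 60240 genes of the deposited expression table, and all 40 were found and passed the filter on low values. RNA was sequenced from cultures of human acute myeloid leukaemia (AML) cell lines that had received either decitabine or its solvent, DMSO. Decitabine is a deoxycytidine analogue that is built into DNA as it is copied and there binds DNA methyltransferases. Per the labels, cells were seeded at 100000 per mL, the treated cultures received decitabine at 100 nM on each of the first 3 days, and RNA was taken from both arms at 72 h. The 5 lines analysed were SKM-1, OCI-AML3, KG-1 and the sister lines MOLM-13 and MOLM-14, each with 3 DMSO and 3 decitabine libraries, or 30 libraries in all. The sister lines were established from the same patient. The protocol mentions replicate wells, and nothing in the labels says that the libraries of a group came from separate cultures or days, so that the spread behind every p-value below may be technical.

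Replication starts when the origin recognition complex, with CDC6 and CDT1, loads the ring of MCM2 to MCM7 onto DNA in G1. In S phase the kinase CDC7 with DBF4 acts on the loaded rings, and CDC45 and the GINS complex join them to form the active helicase. DNA polymerase alpha with primase lays down primers, polymerases epsilon and delta extend them on the clamp PCNA that replication factor C loads, and FEN1 and LIG1 join the pieces of the lagging strand. Transcription of many of these genes is driven by E2F factors and rises as cells enter S phase, so that their RNA is commonly read as a sign of proliferation.

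Values are the deposited normalised counts, and differences are decitabine minus DMSO on the log2(normalised count + 1) scale, with a standard error (SE) and a p-value adjusted by the Benjamini-Hochberg method over all 22168 genes tested with limma. A gene is called lower or higher where that adjusted p is below 0.05. The depth estimated from the smallest step of each library ran from 1.98 to 75.3 in units of 1000000 reads, and 6 libraries were shallow, namely replicate 2 of each arm in OCI-AML3, MOLM-14 and KG-1. The leukocyte gene PTPRC and the myeloid genes CD33 and SPI1 were read in every library (lowest values 3640, 570 and 666), whereas the B cell gene MS4A1 was at 0 in 25 libraries and the erythroid gene HBB in 28. Mitochondrial genes held 8.06% to 19.1% of a library's total and took a larger share in all decitabine libraries than in all DMSO libraries of MOLM-13, MOLM-14 and SKM-1. Whether reads were counted by strand is not given in the sources used here. Of the members, 17 share exon bases with another gene, 7 of them over 10% of their exons (MCM2, GINS3, GINS4, POLA2, PRIM1, RFC5 and TIPIN), and 7 have named pseudogenes (DBF4, POLD2, PCNA, RFC3, RFC5, RPA2 and FEN1), so that their values are less certain.

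Most replication genes were lower after decitabine on the mean of the 5 lines. Of the 40 members, 25 were called lower and 0 higher, where 7.52% of all genes tested were called lower and 12% higher. A further 6 members had a lower value with an unadjusted p below 0.05, and no member had a higher one. The differences were small: the median member differed by -0.25, against 0.06 for the median gene tested, and the members ranged from -0.55 for MCM6 to 0.06 for POLE. Negative differences were found for 38 of the 40, the exceptions being POLE and GINS3. The 5 line differences were all negative for 20 members. With totals that leave out the mitochondrial genes, 24 members were called lower and 0 higher, the call of POLA2 being lost. Of all genes tested, 1299 were called lower in that fit, against 1667 in the main fit. In bulk RNA, fewer cells in S phase and less RNA per cell cannot be told apart. Of the 25 calls, 24 were kept without KG-1, 23 without MOLM-13, 20 without MOLM-14, 25 without OCI-AML3 and 16 without SKM-1. Over MOLM-13 and SKM-1 alone 22 were kept, and over OCI-AML3, MOLM-14 and KG-1, which hold the 6 shallow libraries, 7 were. Fits with fewer lines hold fewer libraries, and their share of all genes called is not given here. A smaller response and less power therefore cannot be told apart in them.

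**Figure D1:**
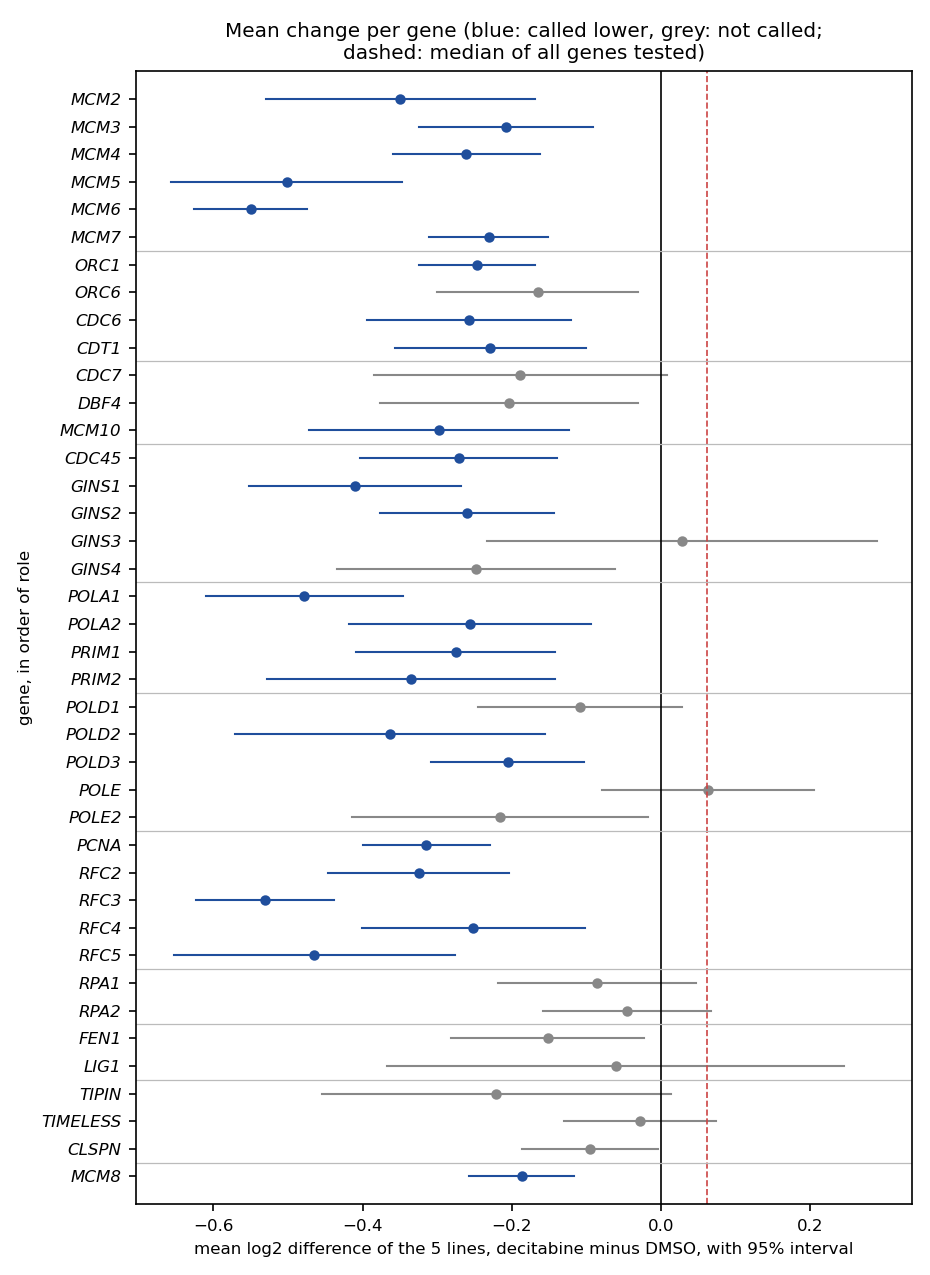
Mean log2 difference of the 5 lines (horizontal axis, decitabine minus DMSO) for each replication gene (vertical axis, in order of role), with its 95% interval; blue points are the 25 genes called lower, grey points the 15 not called, and the dashed line is the median of all genes tested at 0.06. All 38 points other than POLE and GINS3 lie left of 0, and the points of MCM6 and RFC3 lie farthest left.

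Promoters are shown for 4 members because they span the range of the response: MCM6 and RFC3 fell the most on the panel mean, and GINS3 and POLE are the members with a positive difference. The sequences are those of RefSeq on GRCh38.p14, from 250 bases before to 50 bases after the annotated start, 5′ to 3′ on the gene's strand, and 35 of the 40 members matched an entry. Entries for MCM4, MCM5, GINS4, POLD3 and RPA2 were not used here. Capitals mark E2F words (TTTGGCGC, TTTCCCGC, TTTGCCGC or TTTCGCGC), the NF-Y word CCAAT and the CHR words TTTGAA and TTCGAA, each searched on both strands.
MCM6 (chr2:135876394-135876693, minus strand): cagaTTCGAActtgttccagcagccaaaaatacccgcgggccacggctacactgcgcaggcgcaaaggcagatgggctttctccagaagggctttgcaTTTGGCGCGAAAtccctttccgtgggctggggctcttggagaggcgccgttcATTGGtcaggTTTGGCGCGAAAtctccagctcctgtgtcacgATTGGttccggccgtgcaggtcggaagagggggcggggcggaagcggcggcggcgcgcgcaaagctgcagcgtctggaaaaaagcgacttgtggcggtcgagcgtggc
RFC3 (chr13:33817899-33818198, plus strand): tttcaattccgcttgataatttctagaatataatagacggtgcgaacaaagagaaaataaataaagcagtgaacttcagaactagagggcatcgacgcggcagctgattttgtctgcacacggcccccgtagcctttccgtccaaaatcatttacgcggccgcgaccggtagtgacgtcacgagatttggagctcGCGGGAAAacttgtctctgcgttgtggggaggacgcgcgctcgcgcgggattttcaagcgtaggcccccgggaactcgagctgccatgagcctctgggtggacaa
GINS3 (chr16:58392221-58392520, plus strand): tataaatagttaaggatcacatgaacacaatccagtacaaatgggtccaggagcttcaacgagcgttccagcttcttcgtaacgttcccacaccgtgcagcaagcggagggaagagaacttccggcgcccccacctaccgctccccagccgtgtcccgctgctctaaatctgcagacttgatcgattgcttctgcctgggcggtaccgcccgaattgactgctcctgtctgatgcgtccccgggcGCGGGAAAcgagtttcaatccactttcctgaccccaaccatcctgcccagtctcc
POLE (chr12:132687293-132687592, minus strand): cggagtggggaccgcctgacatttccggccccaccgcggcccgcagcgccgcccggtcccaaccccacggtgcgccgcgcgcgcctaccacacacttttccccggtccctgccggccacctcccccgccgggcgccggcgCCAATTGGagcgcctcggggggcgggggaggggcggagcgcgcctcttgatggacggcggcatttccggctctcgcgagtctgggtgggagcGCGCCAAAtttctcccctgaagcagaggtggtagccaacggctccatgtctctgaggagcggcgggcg
The MCM6 window holds the E2F word TTTGGCGC at bases -152 and -90 from the start, each overlapped on the other strand by TTTCGCGC at -148 and -86, with CCAAT on the reverse strand at -100 and -58 and TTCGAA at -246. The RFC3 window holds 1 E2F word on the reverse strand, at -55. GINS3 carries the same word at -5, in a window whose RefSeq start lies inside the longer gene span of GENCODE 29. In POLE the word TTTGGCGC lies on the reverse strand at -18, and CCAAT was found at -110 and, overlapping it on the other strand, at -107. Across the 35 matched members, 18 windows (51.4%) held an E2F word, against 3.31% of the 35116 promoters in the table. NF-Y words were found in 21 members (60%) against 34.6% of all promoters, and CHR words in 2 (5.71%) against 16.4%. The member windows are rich in CpG, with a median of 30 CpG against 14 in all promoters. Every E2F word listed contains a CpG, so that all promoters are an unlike background for the E2F share. A background matched for CpG was not tested. Among the members called lower, 13 of 22 windows held an E2F word, and among those not called 5 of 13. A match describes the letters in the window and is not evidence of binding.

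The 6 subunits of the replicative helicase ring were each called lower on the panel mean, with differences from -0.55 to -0.21. MCM6 (chromosome 2, 135839626 to 135876426, minus strand) had the lowest adjusted p of all members. In KG-1 its normalised counts were 4847, 4347 and 4129 under DMSO and 3415, 3432 and 3551 under decitabine. MOLM-13 read 5265, 5516 and 5021 under DMSO and 3053, 3482 and 3078 under decitabine, and MOLM-14 3136, 3247 and 3482 under DMSO and 2182, 1764 and 2113 under decitabine. The decitabine values thus lay below every DMSO value by a wide gap in both sister lines. OCI-AML3 gave 4615, 5251 and 4590 under DMSO and 3812, 3716 and 3727 under decitabine, and SKM-1 5212, 5409 and 5417 under DMSO and 3621, 3571 and 3304 under decitabine. MCM6 fell by 31.7% on the panel mean, a log2 difference of -0.55 (SE 0.04, limma adjusted p = 6.59e-11). It was the only member called lower in each of the 5 lines, from -0.35 in KG-1 to -0.72 in MOLM-13, and in no line did its groups overlap.

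MCM5 (chromosome 22, 35400063 to 35425430, plus strand) was more uneven between lines. Its counts in KG-1 were 7311, 7014 and 5161 under DMSO and 5790, 5879 and 4395 under decitabine, so that the groups overlapped there. In MOLM-13 they were 3080, 3025 and 2908 under DMSO and 1861, 1765 and 1839 under decitabine, and in MOLM-14 3519, 3399 and 2691 under DMSO and 2236, 1529 and 1652 under decitabine, with no overlap in either. OCI-AML3 gave 4059, 4591 and 3442 under DMSO and 2800, 4432 and 2890 under decitabine, where replicate 2 of the decitabine arm, 1 of the shallow libraries, lay among the DMSO values. SKM-1 gave 3409, 3247 and 3305 under DMSO and 2679, 2641 and 2265 under decitabine, all decitabine libraries below all DMSO libraries. The panel difference was -0.50 (SE 0.07, limma adjusted p = 2.29e-05). By line MCM5 was called in MOLM-13 at -0.72 (SE 0.17, limma adjusted p = 0.0154) and in MOLM-14 at -0.84 (SE 0.17, limma adjusted p = 0.00162).

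MCM2 (chromosome 3, 127598223 to 127622436, plus strand), of whose exon bases 23.6% are shared with genes on the opposite strand, showed the widest spread of the ring. In KG-1 it read 5630, 7706 and 5620 under DMSO and 4933, 6883 and 5158 under decitabine, in MOLM-14 2190, 3810 and 2793 under DMSO and 1585, 2296 and 1392 under decitabine and in OCI-AML3 2717, 4215 and 3337 under DMSO and 2796, 4077 and 2989 under decitabine. In these 3 lines the shallow replicate 2 was the highest of its group in both arms. The deep lines were tighter: MOLM-13 read 3568, 3864 and 3826 under DMSO and 2733, 3121 and 2657 under decitabine, and SKM-1 7133, 7016 and 6965 under DMSO and 5156, 5464 and 5479 under decitabine, without overlap. MCM2 differed by -0.35 (SE 0.09, limma adjusted p = 0.00516) on the panel mean and was called by line only in MOLM-14, at -0.73.

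MCM7 (chromosome 7, 100092728 to 100101940, minus strand) differed by -0.23 (SE 0.04, limma adjusted p = 8.51e-05) on the panel mean and was called by line in MOLM-14 and SKM-1. MOLM-14 read 4949, 4942 and 4578 under DMSO and 3537, 3835 and 3060 under decitabine, and SKM-1 6750, 7389 and 6994 under DMSO and 5307, 5214 and 5453 under decitabine. The other lines overlapped between arms: KG-1 read 2707, 2801 and 2505 under DMSO and 2262, 2689 and 2171 under decitabine, MOLM-13 5579, 5554 and 5985 under DMSO and 5128, 5670 and 5375 under decitabine, and OCI-AML3 6599, 6962 and 6934 under DMSO and 6595, 7409 and 6288 under decitabine. Of the remaining ring subunits, MCM4 differed by -0.26 (SE 0.05, limma adjusted p = 0.000271) and MCM3 by -0.21 (SE 0.06, limma adjusted p = 0.01), and both were called by line in SKM-1 alone. The call of MCM3 on the panel mean was lost after quantile normalization and without SKM-1. The related helicase MCM8, which acts in recombination repair rather than in the ring, differed by -0.19 (SE 0.03, limma adjusted p = 0.000256), with calls in MOLM-14 and SKM-1.

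Of the 4 genes that license origins, 3 were called lower on the panel mean. ORC1, the largest subunit of the origin recognition complex, differed by -0.25 (SE 0.04, limma adjusted p = 2.96e-05), and CDC6, the ATPase that helps it load the ring, by -0.26 (SE 0.07, limma adjusted p = 0.00635). CDT1 (chromosome 16, 88803213 to 88809258, plus strand), which brings the ring to the origin, differed by -0.23 (SE 0.06, limma adjusted p = 0.00971), a mean that joins unlike lines. In MOLM-14 its counts were 1672, 1596 and 1603 under DMSO and 953, 707 and 944 under decitabine, and the drop was larger than in any other line. KG-1 read 1232, 1471 and 1238 under DMSO and 1299, 1293 and 1573 under decitabine, and MOLM-13 1241, 1329 and 1320 under DMSO and 1284, 1327 and 1414 under decitabine, with overlapping groups. OCI-AML3 read 1423, 1517 and 1535 under DMSO and 1055, 1845 and 1330 under decitabine, and SKM-1 1641, 1683 and 1801 under DMSO and 1493, 1470 and 1386 under decitabine. OCI-AML3 thus spread widely under decitabine, while the 3 treated SKM-1 libraries lay below the 3 DMSO libraries. Without MOLM-14, or without SKM-1, CDT1 was no longer called on the panel mean, and CDC6 was lost without SKM-1. ORC6, the smallest subunit of the same complex, differed by -0.16 and was not called (95% interval -0.30 to -0.03). By line it was called in MOLM-14, at -0.50 (SE 0.15, limma adjusted p = 0.0258).

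Of the initiation kinase and its partners, 1 of 3 was called. MCM10, which stabilises the helicase at its activation, differed by -0.30 (SE 0.08, limma adjusted p = 0.0132). The kinase CDC7 differed by -0.19, 95% interval -0.38 to 0.01, and its activating subunit DBF4 by -0.20, 95% interval -0.38 to -0.03, and neither was called. The MCM10 call was lost without MOLM-14 and without SKM-1.

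CDC45 and 2 of the 4 GINS subunits, which turn the ring into the active helicase, were called lower. GINS1 (chromosome 20, 25407727 to 25452628, plus strand) differed by -0.41 (SE 0.07, limma adjusted p = 9.41e-05), the largest drop of the group. In KG-1 it read 1749, 1573 and 1734 under DMSO and 2001, 1041 and 1495 under decitabine, with overlap. MOLM-13 read 1420, 1440 and 1374 under DMSO and 1011, 1105 and 1059 under decitabine, and MOLM-14 1206, 932 and 1016 under DMSO and 771, 670 and 843 under decitabine. OCI-AML3 read 1527, 1349 and 1477 under DMSO and 1161, 891 and 1223 under decitabine, and SKM-1 1751, 1813 and 1734 under DMSO and 1210, 1215 and 1199 under decitabine. All treated libraries lay below all DMSO libraries in the 4 lines other than KG-1, yet by line only SKM-1 was called, at -0.55 (SE 0.15, limma adjusted p = 0.0225). GINS2 differed by -0.26 (SE 0.06, limma adjusted p = 0.00157) and CDC45 by -0.27 (SE 0.06, limma adjusted p = 0.00323). The CDC45 call was lost without MOLM-14. GINS4 differed by -0.25, 95% interval -0.43 to -0.06 and missed the threshold (limma adjusted p = 0.0559). GINS3, the least abundant member, differed by 0.03, 95% interval -0.23 to 0.29, a span that includes rises and falls of similar size. Its sign turned to -0.06 after quantile normalization and to -0.08 without MOLM-13.

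All 4 subunits of the primer-making enzyme were called lower. POLA1 (chromosome X, 24693919 to 24996986, plus strand), the catalytic subunit of polymerase alpha, differed by -0.48 (SE 0.06, limma adjusted p = 5e-06). KG-1 read 2136, 2154 and 2368 under DMSO and 1787, 1311 and 1958 under decitabine, and MOLM-13 1519, 1508 and 1336 under DMSO and 1165, 1110 and 1155 under decitabine. MOLM-14 read 1796, 2447 and 1786 under DMSO and 1311, 1400 and 1453 under decitabine. In these 3 lines, as in the other two, no decitabine value reached the lowest DMSO value. OCI-AML3 read 2016, 2355 and 1834 under DMSO and 1405, 1680 and 1120 under decitabine, and SKM-1 1678, 1553 and 1512 under DMSO and 1022, 1109 and 1133 under decitabine. The line differences of POLA1 were close together, from -0.57 in OCI-AML3 to -0.35 in MOLM-13, and MOLM-14, OCI-AML3 and SKM-1 were called. Its accessory subunit POLA2 differed by -0.26 (SE 0.08, limma adjusted p = 0.0227), the primase PRIM1 by -0.28 (SE 0.06, limma adjusted p = 0.00318) and the large primase subunit PRIM2 by -0.33 (SE 0.09, limma adjusted p = 0.0118). The POLA2 call was lost without KG-1, without MOLM-13 and without SKM-1, and the PRIM2 call without MOLM-14, without SKM-1 and with weighted libraries.

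The replicative polymerases delta and epsilon were mixed, with 2 of 5 members called lower. POLD2 (chromosome 7, 44114681 to 44124358, minus strand), the regulatory subunit of polymerase delta, differed by -0.36 (SE 0.10, limma adjusted p = 0.0111). It read 2240, 2636 and 2038 under DMSO and 1571, 2138 and 2065 under decitabine in KG-1, 639, 684 and 728 under DMSO and 512, 536 and 516 under decitabine in MOLM-13 and 1261, 823 and 1049 under DMSO and 1045, 697 and 1336 under decitabine in MOLM-14. Of these lines only MOLM-13 showed no overlap. OCI-AML3 read 1614, 1974 and 1893 under DMSO and 796, 1525 and 1670 under decitabine, and SKM-1 535, 603 and 710 under DMSO and 372, 447 and 406 under decitabine, the last without overlap. No line was called for POLD2 alone, and its panel call was lost without MOLM-13 and without SKM-1. POLD3, another accessory subunit, differed by -0.20 (SE 0.05, limma adjusted p = 0.00405), and its call was lost without SKM-1. The catalytic subunit POLD1 differed by -0.11, 95% interval -0.25 to 0.03, and its sign turned to 0.11 over MOLM-13 and SKM-1 alone. The epsilon subunit POLE2 differed by -0.22, 95% interval -0.41 to -0.02. None of POLD1, POLE2 and POLE was called on the panel mean.

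POLE (chromosome 12, 132623753 to 132687365, minus strand), the catalytic subunit of polymerase epsilon, differed in sign between lines. MOLM-13 read 1452, 1529 and 1802 under DMSO and 2192, 2332 and 2750 under decitabine, and KG-1 3537, 3738 and 4163 under DMSO and 4511, 4952 and 4844 under decitabine. In both lines every decitabine library lay above every DMSO library. MOLM-14 read 2860, 3179 and 2847 under DMSO and 2142, 3034 and 1716 under decitabine, where decitabine replicate 2, a shallow library, lay among the DMSO values. OCI-AML3 read 2860, 3580 and 2624 under DMSO and 2796, 3306 and 2436 under decitabine, and SKM-1 1574, 1700 and 1722 under DMSO and 1505, 1388 and 1707 under decitabine, both with overlap. POLE was called higher in MOLM-13, at 0.60 (SE 0.15, limma adjusted p = 0.0293), and not called in KG-1, at 0.33 (SE 0.15, limma adjusted p = 0.345). In MOLM-14 it differed by -0.40 (SE 0.15, limma adjusted p = 0.0958). The MOLM-13 call was lost on leaving out any 1 of its 6 libraries other than DMSO replicate 3. On the panel mean POLE differed by 0.06, 95% interval -0.08 to 0.21, a value that became -0.05 over OCI-AML3, MOLM-14 and KG-1 and -0.07 without MOLM-13. Over MOLM-13 and SKM-1 alone POLE was called higher.

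The sliding clamp and the 4 loader subunits were each called lower. RFC3 (chromosome 13, 33818049 to 33966558, plus strand) differed by -0.53 (SE 0.05, limma adjusted p = 4.02e-09), a drop of similar size to that of MCM6. MOLM-13 read 2099, 2191 and 2105 under DMSO and 1433, 1499 and 1546 under decitabine, and MOLM-14 2296, 2252 and 2448 under DMSO and 1378, 1235 and 1482 under decitabine. OCI-AML3 read 1483, 1595 and 1540 under DMSO and 1200, 932 and 1225 under decitabine, and SKM-1 1667, 1652 and 1642 under DMSO and 1024, 1030 and 945 under decitabine. These 4 lines showed no overlap and were each called, from -0.47 in OCI-AML3 to -0.78 in MOLM-14. KG-1 read 2127, 1878 and 2367 under DMSO and 1911, 1688 and 2064 under decitabine, with overlap and a difference of -0.17 (SE 0.10, limma adjusted p = 0.508).

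RFC5 (chromosome 12, 118013588 to 118033130, plus strand) differed by -0.46 (SE 0.09, limma adjusted p = 0.000571). MOLM-14 read 1522, 1516 and 1216 under DMSO and 885, 654 and 1070 under decitabine, and OCI-AML3 1063, 1137 and 775 under DMSO and 985, 427 and 560 under decitabine. The treated OCI-AML3 libraries spread from well below to among the DMSO values. KG-1 read 1348, 1295 and 1186 under DMSO and 1101, 846 and 1017 under decitabine, MOLM-13 555, 555 and 540 under DMSO and 506, 480 and 487 under decitabine, and SKM-1 464, 466 and 465 under DMSO and 352, 369 and 339 under decitabine. Those 3 lines and MOLM-14 showed no overlap, but by line only MOLM-14 was called, at -0.73 (SE 0.20, limma adjusted p = 0.0222). The clamp PCNA differed by -0.31 (SE 0.04, limma adjusted p = 3.9e-06) and was called in KG-1 (-0.42) and SKM-1 (-0.47). The loader subunits RFC2 and RFC4 differed by -0.32 (SE 0.06, limma adjusted p = 0.000235) and by -0.25 (SE 0.07, limma adjusted p = 0.0145), and neither was called in a line by itself. The RFC4 call was lost without MOLM-14 and without SKM-1.

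None of the genes for single-strand binding, fragment joining or fork protection was called on the panel mean. RPA1 and RPA2, subunits of the complex that coats single-stranded DNA, differed by -0.09, 95% interval -0.22 to 0.05, and by -0.04, 95% interval -0.16 to 0.07. The flap nuclease FEN1 differed by -0.15, 95% interval -0.28 to -0.02. DNA ligase LIG1 differed by -0.06, 95% interval -0.37 to 0.25, the widest interval of the 40 members. Its libraries disagreed within groups: KG-1 read 1796, 3607 and 1484 under DMSO and 1475, 2954 and 1583 under decitabine, and MOLM-14 1249, 1447 and 1282 under DMSO and 936, 2290 and 704 under decitabine. The shallow replicate 2 was the highest of its group in both arms of OCI-AML3, MOLM-14 and KG-1, and whether depth sets these values was not tested. Its sign was turned by leaving out KG-1 DMSO replicate 2 (0.02) or MOLM-14 decitabine replicate 3 (0.01). Of the fork protection genes, TIPIN differed by -0.22, 95% interval -0.45 to 0.01, its partner TIMELESS by -0.03, 95% interval -0.13 to 0.07, and the checkpoint adaptor CLSPN by -0.10, 95% interval -0.19 to -0.0035. TIMELESS turned to 0.02 after quantile normalization. By line CLSPN alone of these 7 genes was called, in SKM-1, at -0.32 (SE 0.10, limma adjusted p = 0.0437).

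The number of members called differed between lines. In MOLM-14, 15 members were called lower, where 4.77% of all genes were, and 0 higher, where 6.26% were. In SKM-1 13 were called lower (3.32% of all genes) and 0 higher (5.7%). MOLM-13 had 3 members lower (1.67% of all genes) and 1 higher (1.45%), OCI-AML3 3 lower (1.64%) and 0 higher (3.74%), and KG-1 2 lower (0.663%) and 0 higher (3.12%). At an unadjusted p below 0.05, limma gave no higher member in MOLM-14, SKM-1 or OCI-AML3 and 1 in KG-1. The median member differed by -0.38 in MOLM-14, -0.39 in SKM-1, -0.17 in KG-1, -0.16 in MOLM-13 and -0.10 in OCI-AML3, against 0.01 to 0.08 for the median gene tested in each line. Called lower in a single line were 14 members, in 2 lines 5 and in no line 18, POLE among the last, while POLA1 was called lower in 3 lines, RFC3 in 4 and MCM6 in 5.

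The members called in MOLM-14 but not in SKM-1 were MCM2, MCM5, ORC6, CDT1, MCM10, CDC45, PRIM1, POLD1 and RFC5. Those called in SKM-1 but not in MOLM-14 were MCM3, MCM4, GINS1, GINS2, POLD3, PCNA and CLSPN, and 6 were called in both (MCM6, MCM7, ORC1, POLA1, RFC3 and MCM8). A call in one line and not in the other is not a difference between them, and for most of these genes no difference was called. The counts by line depend on the spread that the 30 libraries share. With each line fitted alone, 31 members were called lower in SKM-1 and 14 in MOLM-13, but 3 in MOLM-14 and 0 in KG-1 and OCI-AML3. SKM-1 had 7 called without decitabine replicate 1 and 8 without decitabine replicate 2 or any 1 of its DMSO libraries. With totals free of mitochondrial genes SKM-1 had 8. KG-1 had 1 without decitabine replicate 2 or DMSO replicate 1, and OCI-AML3 had 1 without DMSO replicate 2. The shares of all genes given above belong to the main fit, and none was computed by line for these alternative fits.

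Counting only whether the groups overlap, all decitabine libraries lay below all DMSO libraries for 33 members in SKM-1 (18.9% of all genes), 21 in MOLM-13 (17%), 20 in MOLM-14 (9.5%), 10 in KG-1 (6.44%) and 6 in OCI-AML3 (7.42%). The 6 of 40 in OCI-AML3 lie nearest to the share of all genes, and the 33 of 40 in SKM-1 farthest above it. The reverse, all decitabine libraries above all DMSO libraries, held for ORC6, POLD1, POLE and CLSPN in MOLM-13 (22.8% of all genes) and for POLE in KG-1 (10.2%). SKM-1 and MOLM-13 had deep libraries that lay close together, whereas replicate 2 was shallow in the other 3 lines.

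**Figure D2:**
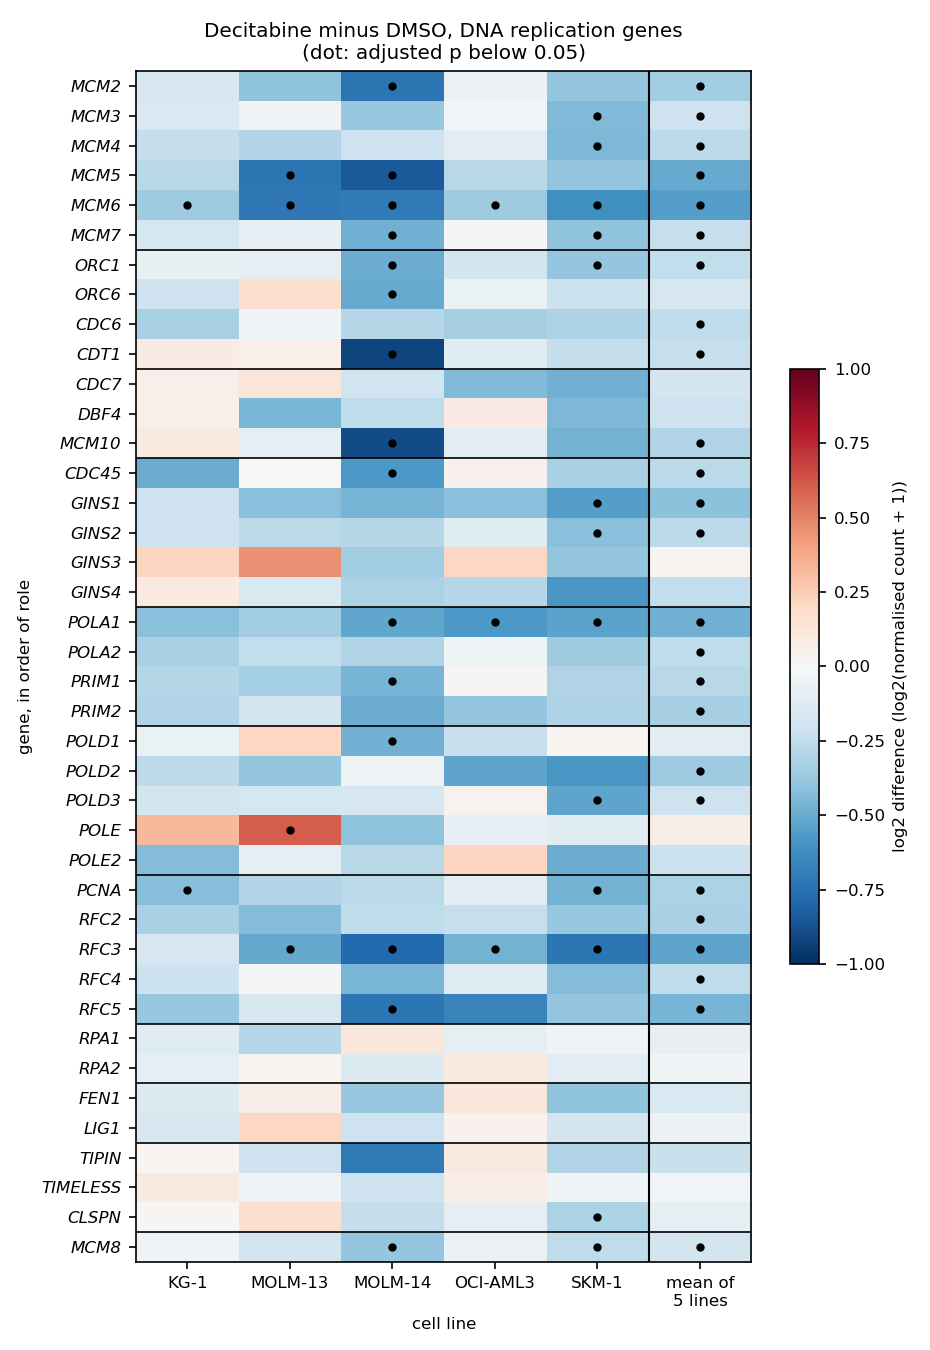
Log2 difference, decitabine minus DMSO (colour, blue lower and red higher), of each replication gene (vertical axis, in order of role, roles parted by lines) in each line and on the mean of the 5 lines (horizontal axis); a dot marks an adjusted p below 0.05. MOLM-14 carries 15 dots and SKM-1 13, MCM6 is dotted in every column, and the single red dotted cell is POLE in MOLM-13.

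A difference in response between the lines was called for 5 members by an F-test over the 5 lines, CDT1, POLE, RFC3, MCM7 and ORC1, where 9.46% of all genes were called, so that the share of members, 5 of 40, was close to that of all genes. The adjusted p-values (limma) were 0.00529 for CDT1, 0.0161 for POLE, 0.0297 for RFC3, 0.0359 for MCM7 and 0.0469 for ORC1. Against the mean of the other 4 lines, CDT1 differed in MOLM-14 by -0.86 (SE 0.16, limma adjusted p = 0.00203) and MCM10 by -0.75 (SE 0.21, limma adjusted p = 0.0467), where 3.62% of all genes were called. MCM10 read 1732, 1381 and 1860 under DMSO and 1118, 617 and 996 under decitabine in MOLM-14. RFC3 in KG-1 stood above the mean of the others by 0.45 (SE 0.11, limma adjusted p = 0.0242), where 3.02% of all genes were called. POLE stood higher in MOLM-13 by 0.68 (SE 0.17, limma adjusted p = 0.0481), where 1.38% were. No member was called in OCI-AML3 (2.41%) or SKM-1 (3.88%) against the others, with 8 and 5 members at an unadjusted p below 0.05 in limma.

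In the sister lines the values of CDT1 stood apart: MOLM-14 differed by -0.92 (95% interval -1.20 to -0.63) and MOLM-13 by 0.05 (95% interval -0.24 to 0.34). MCM7 differed by -0.48 in MOLM-14 and by -0.08 in MOLM-13, and ORC1 by -0.50 and -0.09. ORC1 read 1047, 1213 and 1021 under DMSO and 732, 790 and 792 under decitabine in MOLM-14 and 981, 962 and 991 under DMSO and 750, 739 and 752 under decitabine in SKM-1, the 2 lines in which it was called. A direct contrast of the sister lines was not tested. The call of CDT1 between lines was kept without any 1 library but lost without MOLM-14 (adjusted p = 0.593), and that of POLE was lost without MOLM-13 (0.229) or SKM-1 (0.052). Those of RFC3, MCM7 and ORC1 were kept without 23, 16 and 7 of the 30 libraries left out in turn. The calls of RFC3 and ORC1 were lost on leaving out any line other than OCI-AML3, and that of MCM7 on leaving out any line other than KG-1. Other settings ended these calls too. After quantile normalization the adjusted p was 0.0773 for RFC3, 0.0899 for MCM7 and 0.0652 for ORC1, and with no variance trend or robust estimation none of these 3 was called. RFC3 was also lost with TMM factors (0.0568), with totals free of mitochondrial genes (0.107) and with no filter on low values. ORC1 was also lost with the last 2 of these settings and with the replicate number as a block (0.0507). POLE in MOLM-13 against the others was kept in 7 of the 30 fits that leave out 1 library, MCM10 in MOLM-14 in 10, RFC3 in KG-1 in 26 (lost without decitabine replicate 1 or 3 or DMSO replicate 1 or 2 of KG-1) and CDT1 in MOLM-14 in all 30. RFC3 in KG-1 was also lost after quantile normalization (0.081), with totals free of mitochondrial genes (0.074) and with no variance trend (0.0546). POLE in MOLM-13 was also lost with a pseudocount of 0.5, with no filter and with no variance trend, and MCM10 in MOLM-14 with no filter, with no variance trend and with weighted libraries.

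**Figure D3:**
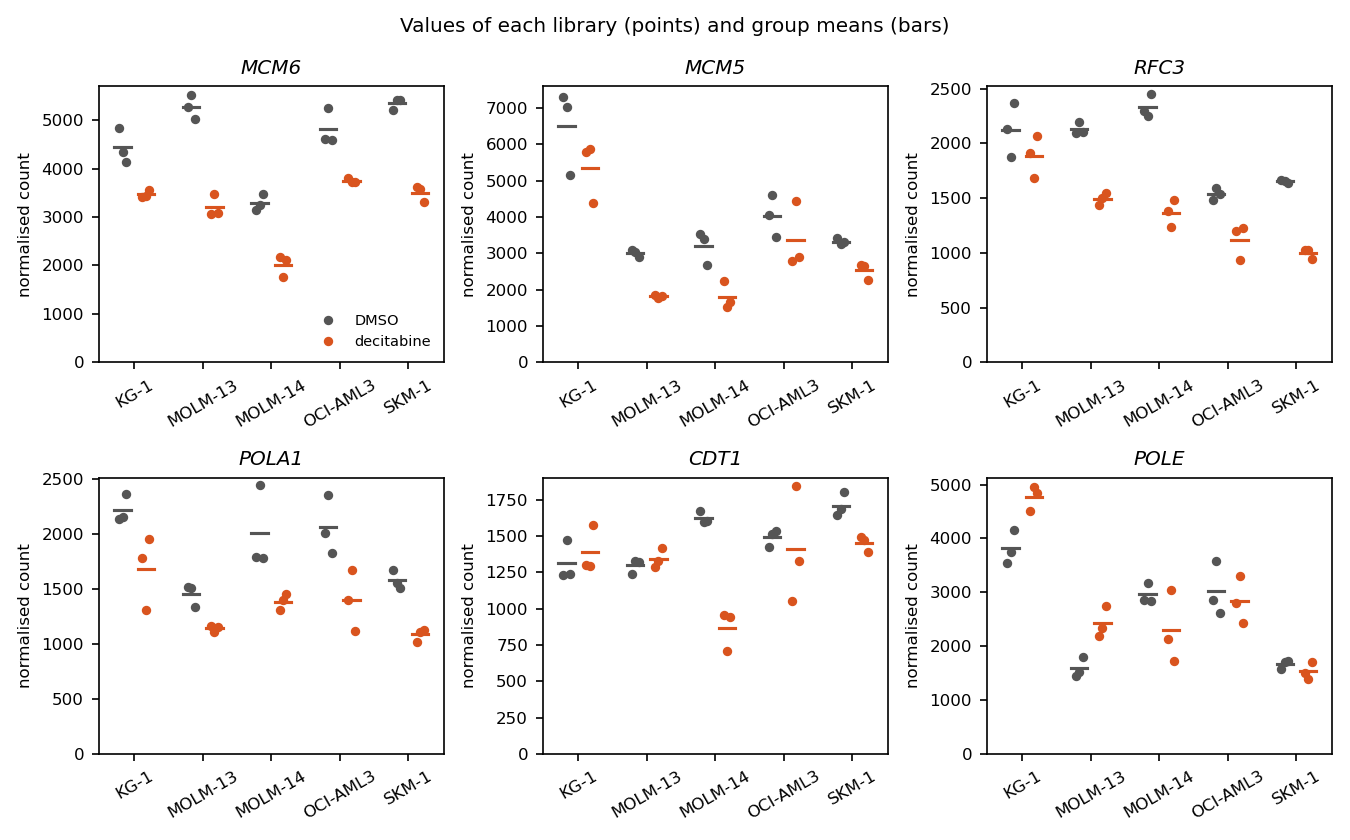
Normalised count (vertical axis, from 0) of MCM6, MCM5, RFC3, POLA1, CDT1 and POLE in each library, by cell line (horizontal axis); points are the 3 libraries of a group, bars their mean, grey DMSO and orange decitabine. The arms of MCM6 and POLA1 are apart in all 5 lines, CDT1 drops in MOLM-14, and POLE is higher under decitabine in KG-1 and MOLM-13.

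The summed normalised counts of the 40 members made up 0.469% to 0.482% of the total in the DMSO libraries of SKM-1 and 0.357% to 0.374% in its decitabine libraries. In MOLM-14 the shares were 0.414% to 0.441% and 0.331% to 0.336%, and in MOLM-13 0.426% to 0.465% and 0.374% to 0.381%. KG-1 stood highest, at 0.645% to 0.679% under DMSO and 0.567% to 0.590% under decitabine. OCI-AML3 read 0.515% to 0.524% and 0.408% to 0.499%, with the widest spread in the treated arm, whose lowest library, decitabine replicate 1, also had the highest mitochondrial share of that line (15.6%). The 2 arms did not overlap in any line on this share, whose total includes the mitochondrial genes. On the summed counts themselves they overlapped in OCI-AML3 and in no other line. There decitabine replicate 2 read 92903 and DMSO replicate 1 read 89803. MCM4 alone gave 40478, 40591 and 45153 normalised counts in the KG-1 DMSO libraries, of summed counts of 123144 to 127395.

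In the DMSO cultures at 72 h the members spanned a wide range of levels, compared here in normalised counts per kb of the longest coding transcript (GENCODE 29). MCM4 was the highest, with a mean over the 5 lines of 5370 per kb, followed by PCNA at 3190, MCM3 at 2100 and MCM7 at 1760. GINS3 at 125, TIPIN at 173 and GINS2 at 192 were the lowest. A DMSO level that differed between lines was called by the F-test for 38 of 40 members, where 77.9% of all genes were called, and not for GINS3 or TIPIN. KG-1 held 10100 per kb of MCM4 against 3660 in OCI-AML3, and MOLM-13 held 5030 of PCNA against 1870 in SKM-1. SKM-1 was the highest line for 16 members and the lowest for 11, KG-1 the highest for 12, and MOLM-14 the lowest for 12. POLD2 stood at 1070 per kb in KG-1 against 285 in SKM-1, a ratio of 3.75. LIG1 stood at 581 in KG-1 against 133 in SKM-1, and the KG-1 mean includes the shallow replicate 2, whose normalised count was 3607 against 1796 and 1484 in the other DMSO libraries. For TIPIN the ratio was 1.2.

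**Figure D4:**
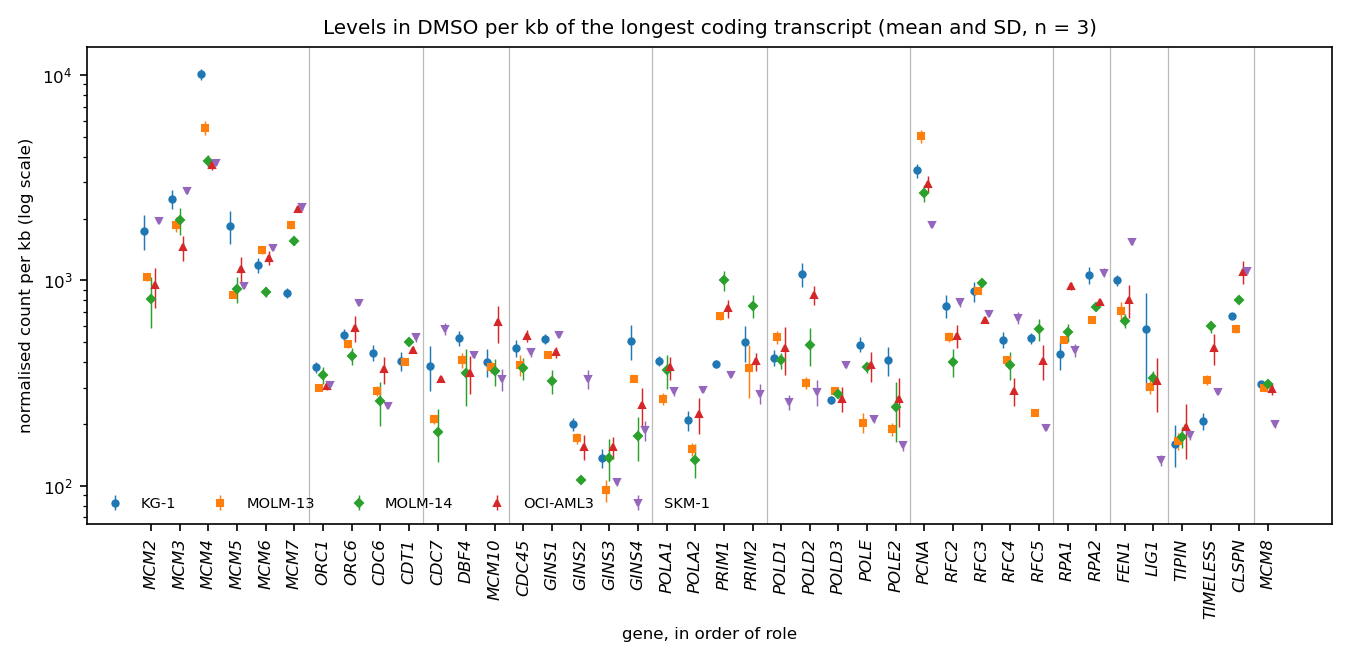
Normalised count per kb of the longest coding transcript (vertical axis, log scale) of each replication gene (horizontal axis, in order of role) in the DMSO libraries of each line; symbols are means and bars the SD of 3 libraries. MCM4 and PCNA lie at the top, GINS3, TIPIN and GINS2 at the bottom, and POLD2 stands higher in KG-1 than in SKM-1.

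Other genes of DNA copying moved the same way in part. Of 38 further replication genes in a list made beside the members, 17 were called lower and 1 higher on the panel mean (median -0.17). Of all genes tested, 7.52% were called lower and 12% higher there. The 17 lower ones included the PCNA-unloading factor ATAD5, -0.33 (adjusted p = 8.07e-08), the loader's large subunit RFC1, -0.33 (adjusted p = 2.17e-05), and the histone chaperone SUPT16H, -0.24 (adjusted p = 4.33e-06). The 1 higher was POLD4, the small subunit of polymerase delta, 0.66 (adjusted p = 0.000231). Of 15 genes that supply deoxynucleotides, 9 were lower and 2 higher, the latter near the 12% of all genes called higher. The ribonucleotide reductase gene RRM2 differed by -0.27 (adjusted p = 0.000308) and CAD, which starts pyrimidine synthesis, by -0.57 (adjusted p = 0.00122). The 2 higher ones, the p53-regulated reductase subunit RRM2B, 0.33 (adjusted p = 0.0006), and the mitochondrial kinase TK2, 0.38 (adjusted p = 5.41e-05), are known for supply outside S phase. RRM2B differed by -0.04 in KG-1 and TK2 by -0.01 in MOLM-13, and each was positive in every other line. All these adjusted p-values are from the same limma fit.

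Lists of S phase regulators and of fork repair genes held further lower calls, beside 7.52% of all genes called lower and 12% higher. Of 22 E2F, RB and MuvB genes 10 were lower and 0 higher (median -0.09), among them RBL1, -0.29 (adjusted p = 2.27e-05), and the E2F partner TFDP1, -0.29 (adjusted p = 0.000168). Of 11 ATR and CHK1 checkpoint genes 2 were lower, CHEK1, -0.43 (adjusted p = 5.81e-06), and ATR, -0.23 (adjusted p = 0.000419). Of 20 fork and crosslink repair genes 8 were lower (median -0.24), among them the helicase BLM, -0.40 (adjusted p = 2.7e-06), and BRCA1, -0.28 (adjusted p = 0.000168). CDK inhibitors and p53 arrest genes went the other way, with 6 of 12 higher and 1 lower (median 0.44). BTG2, an antiproliferative p53 target, differed by 1.06 (limma adjusted p = 1.91e-11). MDM2, the ubiquitin ligase of p53 and also its target, differed by 0.50 (limma adjusted p = 6.05e-09). Of the CDK inhibitors, CDKN1A was higher, 0.98 (limma adjusted p = 1.16e-07). CDKN1C was also higher, 1.09 (limma adjusted p = 0.0267), though at -2.09 in OCI-AML3. CDKN2C was lower, -0.14 (limma adjusted p = 0.00701), and CDKN1B, CDKN2A, CDKN2B and CDKN2D were not called.

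Mitosis genes were mostly lower on the panel mean as well, where 7.52% of all genes were called lower and 12% higher. Of 26 such genes 16 were lower, such as the cyclin CCNA2, -0.46 (limma adjusted p = 4.02e-09), and the spindle factor TPX2, -0.24 (limma adjusted p = 2.11e-06). The 1 higher was the ubiquitin carrier UBE2C, 0.69 (limma adjusted p = 4.66e-06), whose sign differed between lines (limma F-test adjusted p = 7.0e-09). UBE2C differed by 3.35 in SKM-1 and 0.83 in KG-1, but by -0.34 in MOLM-13, -0.28 in MOLM-14 and -0.10 in OCI-AML3. By line, 15 of the 26 mitosis genes were lower in SKM-1 (3.32% of all genes), 12 in MOLM-14 (4.77%) and 10 in MOLM-13 (1.67%). Of the 40 replication members, 13, 15 and 3 were lower in these lines. In KG-1 no mitosis gene was called lower (0.663% of all genes) and 5 were called higher (3.12%), with a median of 0.19. Of the replication members there, 2 were lower and 0 higher (median -0.17). The difference between the lists was not tested.

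**Figure D5:**
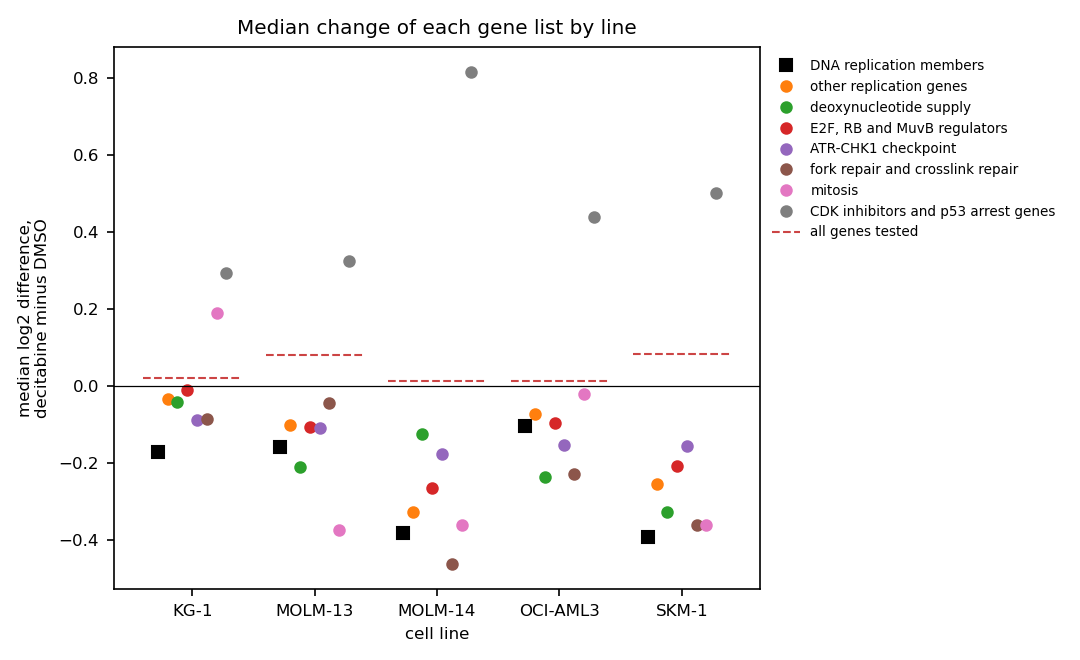
Median log2 difference, decitabine minus DMSO (vertical axis), of the replication members (black squares) and of 7 other gene lists (coloured circles) in each line (horizontal axis); dashed bars are the median of all genes tested. The replication members lie below the dashed bar in all 5 lines, the arrest genes above it, and the mitosis genes stand above it in KG-1 at 0.19.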

How the data were processed

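RNA of human AML cell lines was measured by stranded total RNA sequencing (SMARTer kit, RiboGone, 50 bp single-end reads), per the labels' protocols. The authors deposited 1 table of signal per gene, which its name gives as estimated counts divided by DESeq2 normalization factors. Named in the submitters' processing notes, with no role or order, are STAR, featureCounts, Salmon 1.2.1, limma, DESeq2 and the build hg38. Only 53.7% to 74.2% of low values were whole multiples of a library's step (tolerance 0.02), so no count model was run, and depth is an estimate. Of 42 labelled libraries of 7 lines, 30 of 5 lines had columns. The libraries of OCI-AML2 and THP-1 were not analysed here, and 12 columns of no labelled sample were not used. Columns of OCI-AML3, KG-1 and MOLM-14 were assigned from the line, arm letter and replicate number in their names, with the letters read as for the other lines, whose labels name their columns. MOLM-14 is named by the labels and not by the series' design text.

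Values were analysed as log2(value + 1) for genes with at least 10 in at least 3 libraries, with limma 3.58.1 (R 4.3.3, statmod 1.5.0): 10 group means, 20 residual degrees of freedom, variance trend, robust estimation, and Benjamini-Hochberg adjustment over 22168 genes. The fit was tested on simulated data. Genes named with the value of every library are the 8 members with the largest panel change among those called, and the members with the lowest adjusted p for unequal responses. Alternatives were other filters, pseudocounts and scalings, library weights, a replicate block, and leaving out libraries or lines. The members and lists were chosen with earlier results of these data known. Coordinates are those of GENCODE 29 on GRCh38, and the annotation release of the table is not given in the sources used here.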

Additional observations from a re-analysis of the deposited data

Results flagged for a closer look

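The decitabine response of 5 replication genes differed between the 5 lines by limma's F-test, with adjusted p = 0.00529 for CDT1, 0.0161 for POLE, 0.0297 for RFC3, 0.0359 for MCM7 and 0.0469 for ORC1. The share of members, 5 of 40, was close to the 9.46% of all genes called. In 4 cases a single line differed from the mean of the other 4. Of all genes, 3.62% were so called in MOLM-14, 1.38% in MOLM-13 and 3.02% in KG-1. CDT1 and MCM10 fell further in MOLM-14, by a log2 difference of -0.859 and -0.75. POLE stood 0.676 higher in MOLM-13, where it was the only member called higher in a line. RFC3 stood 0.453 higher in KG-1, the line with the smallest fall of that gene. Of the 30 fits that leave out 1 library, 30 kept the case of CDT1, 26 that of RFC3, 10 that of MCM10 and 7 that of POLE.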

How the results depend on the processing

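The count of members called lower on the mean of the 5 lines stayed at 24 to 27, with 0 higher, under the filters, pseudocounts, scalings, replicate block and variance model tried, and reached 29 without the 6 shallow libraries and 31 with library weights. It was 25 to 28 on leaving out any 1 library, 7 over OCI-AML3, MOLM-14 and KG-1 and 16 without SKM-1, and 1 member (POLE) was higher over MOLM-13 and SKM-1. Of all genes, 1667 were called lower in the main fit, 1871 after quantile normalization, 1931 with TMM factors and 1299 without mitochondrial genes. For the other settings the count of all genes called is not given here, and leaving out lines also leaves fewer libraries.
Counts by line moved more. For these counts, and for those of unequal responses below, no share of all genes called was computed under the alternatives. With each line fitted alone they were 0 in KG-1, 14 in MOLM-13, 3 in MOLM-14, 0 in OCI-AML3 and 31 in SKM-1. Library weights gave 17 in MOLM-13 and 32 in SKM-1, leaving out the shallow libraries 10 and 26, quantile normalization 1 in MOLM-13, and totals without mitochondrial genes 8 in SKM-1. The higher count in MOLM-13 became 0 with no trend or robust estimation and 2 with weights. Without 1 library the lower counts were 1 to 3 in KG-1, 2 to 4 in MOLM-13, 11 to 18 in MOLM-14, 1 to 4 in OCI-AML3 and 7 to 15 in SKM-1, and the higher count in MOLM-13 was 0 to 1.
Members with unequal responses numbered 3 with no filter, 2 after quantile normalization, 3 without mitochondrial genes, 2 with no trend, 17 with weights, 14 without shallow libraries, and 3 without KG-1, 1 without MOLM-13, 2 without MOLM-14, 8 without OCI-AML3 and 1 without SKM-1. Leaving out 1 library gave 2 to 7, and 36 to 38 for unequal DMSO levels.
For KG-1 against the others the count was 0 after quantile normalization, without mitochondrial genes and with no trend, 2 with weights and 5 without shallow libraries. For MOLM-13 it was 0 with no filter, a pseudocount of 0.5 or no trend, 11 with weights and 5 without shallow libraries. For MOLM-14 it was 1 with no filter or no trend, 4 with a filter of 50 and 8 without shallow libraries. For OCI-AML3 it was 1 with TMM factors, and for SKM-1 2 with TMM, 10 with weights and 2 without shallow libraries. Leaving out 1 library gave 0 to 2, 0 to 1, 1 to 4, 0 to 2 and 0 to 2 in that order of lines.
The main fit did not pair same-numbered libraries. Their deviations correlated at -0.0225 to 0.153, with 6 of 15 pairs over 0.1 and 11 best with their own number. In OCI-AML3, MOLM-14 and KG-1 every library matched its own number best, at 0.0703 to 0.153. In SKM-1 and MOLM-13 same-numbered libraries correlated at only -0.0225 to 0.0408. Spread shared by number in the lines with a shallow replicate 2 thus stayed in the main fit, and its cause was not tested. With the replicate block, 6 members were lower in MOLM-13 and 20 in SKM-1, against 3 and 13 without it. Unequal responses were called for 9 members against 5 without it (ORC1 no longer, limma F-test adjusted p = 0.0507). In MOLM-14 6 members differed against the others, and 2 did without the block.
Signs of single members turned for GINS3 (-0.0608 after quantile normalization, -0.0178 without KG-1, -0.0790 without MOLM-13, -0.0172 without OCI-AML3, and -0.0354 to 0.104 without 1 library), POLD1 (0.115 over MOLM-13 and SKM-1), POLE (-0.0548 over OCI-AML3, MOLM-14 and KG-1, -0.00213 without KG-1, -0.0719 without MOLM-13), LIG1 (0.0111 over MOLM-13 and SKM-1, and -0.160 to 0.0160 without 1 library) and TIMELESS (0.0226 after quantile normalization, 0.00138 without mitochondrial genes, 0.0160 without MOLM-14). The cause of these changes was not tested, beyond fewer libraries or lines where these were left out.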

Other observations

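The shallow replicate 2 of OCI-AML3, MOLM-14 and KG-1 stood apart for some members in both arms. Averaged over these 6 groups, replicate 2 exceeded the mean of replicates 1 and 3 by 0.81 for LIG1 and 0.52 for MCM2 on the log2 scale, in 6 of 6 groups each. DBF4 was lower by -0.42, in 6 of 6 groups.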
